A study of Sus scrofa with 96 samples.

Results

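The 5 genes described here carry consecutive Ensembl identifiers, ENSSSCG00000000002 to ENSSSCG00000000006, out of 25322 genes in each table of counts. In that order they are GTSE1, TTC38, PKDREJ, CDPF1 and PPARA. They were selected as neighbours on chromosome 5, and the locus was chosen with levels of these genes in the same libraries in view, so the levels in liver and testis below are a description with no test. A table of identifiers and symbols paired 4 of the 5. The identifier ENSSSCG00000000004 had no entry, and it is called PKDREJ from its place between TTC38 and CDPF1 in the RefSeq annotation of Sscrofa11.1. The counts were made on an older assembly, and the identifiers do not follow that order throughout: TRMU, the identifier after PPARA, lies before GTSE1 in RefSeq. The name PKDREJ thus rests on gene order alone and was not checked by sequence. In the RefSeq annotation the 5 genes follow one another directly, and TTC38 and PKDREJ overlap at their ends. Whether they overlap in the older annotation used for counting, and on which strands they lie, was not checked. How reads of a shared stretch were counted is thus not known.

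The RNA came from the liver and testis of 48 Danish Landrace boars, sorted by their genetic merit for boar taint (BT), the off-odour of meat from entire males. There were 16 boars of high, 16 of medium and 16 of low merit. No treatment was applied, and each animal gave 1 library per tissue. The paper states that testis was sampled later than liver, after the carcass had been kept cold. Tissue and this delay cannot be told apart. The merit of a boar was the breeding value of its sire for skatole and human nose score. Boars of 1 sire, at most half-siblings, could be in a group, and sires were not in the fits. A kit for stranded mRNA gave 80 of the 96 libraries and a kit for total RNA gave 16, which the study used for RNA of lower integrity. The total RNA libraries were 2 of 48 in liver and 14 of 48 in testis, and they formed batch 3 of the batch labels. All stranded mRNA livers were in batch 1. The stranded mRNA testes of low merit were in batch 1, those of high merit were in batch 2, and those of medium merit were split over both.

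PPARA encodes a nuclear receptor that, bound to fatty acids, switches on genes of fatty acid oxidation and ketone body formation, above all in the liver. PKDREJ encodes a large membrane protein of the polycystin family that is made in male germ cells and sits on the sperm head. GTSE1 is a microtubule-associated protein made in dividing cells in the later part of the cell cycle. TTC38 is a protein with tetratricopeptide repeats and CDPF1 a small protein with a cysteine-rich motif, and little is known of either. No sequence of these genes was used here.

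Depth and tissue identity were checked first. Reads on genes ranged from 3728775 to 12156143 in liver and, leaving out 1 library, from 3689243 to 18045966 in testis. That library, the total RNA testis of boar 3309 in the low group, held 379942 reads on 940 genes, and all 5 genes of the locus were at 0 in it. At this depth a count of 0 allows up to 7.90 counts per 1000000 reads on genes (CPM), by the 3-count limit, which covers counting error only. A second testis, the stranded mRNA library of boar 8308 in the medium group, went against its label. Its summed CPM of 4 spermatid markers (PRM1, TNP1, TNP2, ACRV1) was 593, against 15564 to 35717 in the other stranded mRNA testes. Its spermatocyte marker SYCP3, Leydig cell sum (CYP17A1, INSL3) and Sertoli cell marker SOX9 were at 7.22, 54.6 and 2.15 CPM. In the others they were at 324 to 589, 1480 to 15351 and 13.6 to 46.4 CPM. Further markers listed for these 3 cell types were not paired with an identifier. The leukocyte sum of this library, 76.8 CPM, lay above the 1.63 to 12.9 CPM of the others. Results that rest on these 2 libraries are given with and without them. The hepatocyte sum was 52896 to 214320 CPM in liver and 58.8 to 629 CPM in stranded mRNA testes. In liver the spermatid sum ran from 0 to 29.0 CPM.

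PKDREJ was the testis gene of the locus. Over the 34 stranded mRNA testes its lowest, median and highest levels were 17.4, 996 and 1578 CPM, and the lowest was the library of boar 8308. The next lowest was 587 CPM. In liver the 46 stranded mRNA libraries ran from 0 to 2.97 CPM with a median of 0.280 CPM. No liver reached any testis other than that of boar 3309. In liver 6 of 46 libraries held no PKDREJ read, where the 3-count limit allows 0.247 to 0.805 CPM depending on depth, and the median was 2.5 reads. With 0.5 reads added to each count, the median difference within boars, testis minus liver, was 11.22 on the log2 scale (SD 2.13, 48 boars). It was 11.33 (SD 1.57) over the 46 boars without the unusual testes, in all of which testis was higher. In the 17 of these boars with more than 3 liver reads the testis level was 350-fold to 2417-fold the liver level, with a median of 1106-fold. In the 6 boars without a liver read it was at least 2733-fold higher, with the liver put at 3 counts. Of the 16153 genes with a mean count above 5 in either tissue, 1.48% had a higher median difference than PKDREJ, and 42.9% were above liver in every testis other than that of boar 3309. Less RNA per cell and fewer cells of a type cannot be told apart in these tissue samples.

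TTC38 had the opposite direction. Stranded mRNA livers held 57.4 to 211 CPM with a median of 99.5 CPM, and stranded mRNA testes held 5.41 to 19.8 CPM with a median of 11.8 CPM. The ranges did not overlap. Liver was higher in 48 of 48 boars, and the median difference was -3.05 on the log2 scale (SD 0.77), or 8.27-fold. A lower level in testis in every boar other than 3309 was seen for 6.30% of all genes.

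PPARA was also higher in liver in most boars, and its ranges overlapped. In stranded mRNA livers its lowest, median and highest levels were 2.14, 7.34 and 19.6 CPM. In stranded mRNA testes they were 0, 0.855 and 9.17 CPM. The median difference was -2.07 on the log2 scale (SD 1.88), with liver higher in 41 of 48 boars and in 39 of the 46 without the unusual testes.

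GTSE1 was higher in testis. Its lowest, median and highest levels were 0.127, 1.69 and 6.17 CPM in stranded mRNA livers and 1.85, 6.05 and 11.7 CPM in stranded mRNA testes. The liver levels of GTSE1 rest on 1 to 41 reads, with a median of 16.5. The median difference was 2.04 on the log2 scale (SD 1.07), and testis was higher in 45 of the 46 boars without the unusual testes. Among all genes 41.7% had a higher difference, so GTSE1 stood near the middle of the table.

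CDPF1 differed little between the tissues. Stranded mRNA livers held 3.04 to 10.24 CPM with a median of 5.23 CPM, and stranded mRNA testes held 4.93 to 11.9 CPM with a median of 7.95 CPM. The median difference was 0.40 on the log2 scale (SD 0.62), with testis higher in 41 of 48 boars. This direction turned when libraries were scaled by TMM factors over both tissues, which gave -0.59. With the same scaling GTSE1 was at 0.87, PKDREJ at 10.36, TTC38 at -4.22 and PPARA at -3.48, all in the same direction as before. For GTSE1 testis was higher in 35 of 48 boars with this scaling and in 47 of 48 without it.

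**Figure D1:**
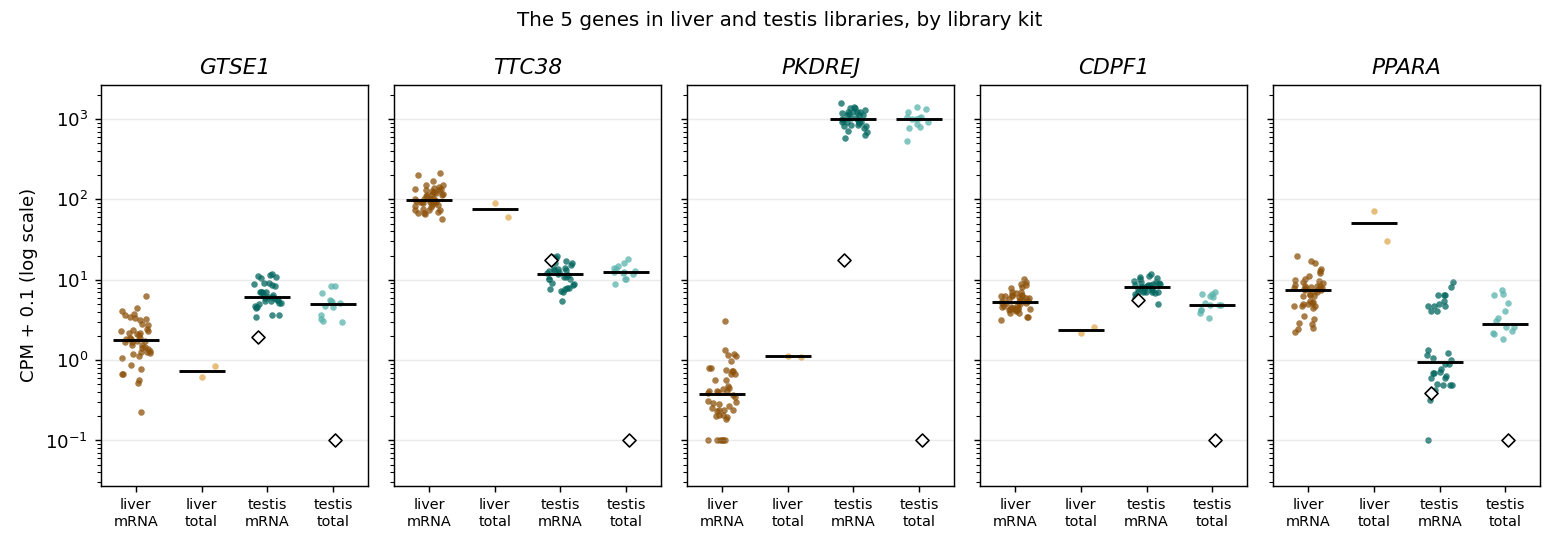
CPM + 0.1 on a log axis for each of the 5 genes in the 46 stranded mRNA (mRNA) and 2 total RNA (total) livers and the 34 and 14 testes. Each dot is a library, bars are medians and open diamonds are the testes of boars 3309 and 8308; PKDREJ lies below 3 CPM in all livers and at 536 CPM or more in every testis other than the diamonds.

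Nearby identifiers were measured for comparison. The files held 8 of them, and 5 passed the mean count of 5, all numbered after PPARA. Their median differences between the tissues ranged from -2.52 to 9.65 on the log2 scale, so neighbours of the locus went in both directions as well.

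The PPARA level in testis fell into separate ranges. Of the 34 stranded mRNA testes 22 had 0 to 1.24 CPM (0 to 11 reads) and 12 had 3.98 to 9.17 CPM (26 to 93 reads), and no library lay between. The upper range held 4 of 7 low merit testes in batch 1, 3 of 7 medium merit testes in batch 1, 2 of 6 medium merit testes in batch 2 and 3 of 14 high merit testes in batch 2. All merit groups and both batches thus had libraries in both ranges. In the 13 total RNA testes other than that of boar 3309 the values ran from 1.73 to 7.32 CPM, and 8 of the 13 lay inside the gap of the stranded mRNA testes. Among the 34 boars with stranded mRNA libraries of both tissues testis exceeded liver in 5, and all 5 had testis values in the upper range. This split was noticed in the data and was given no test.

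**Figure D2:**
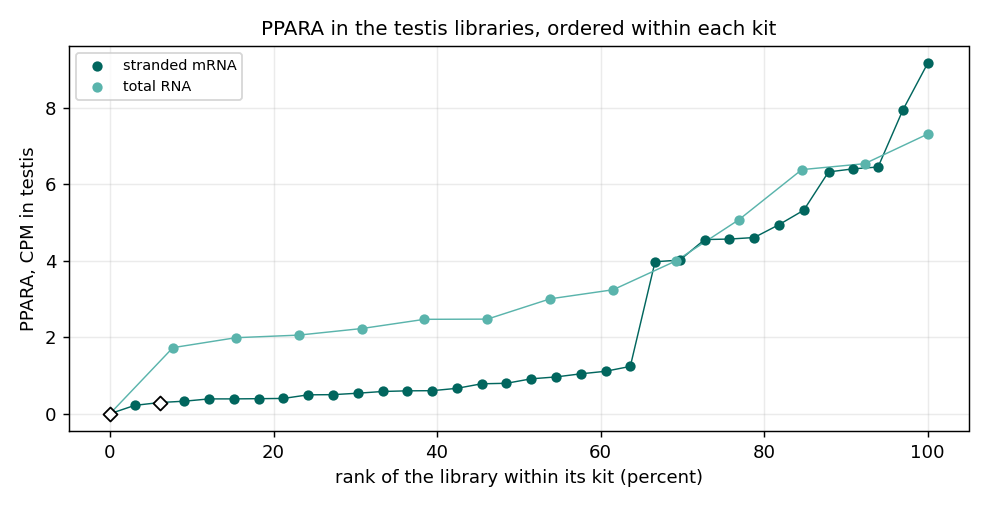
PPARA in CPM (vertical axis) against the rank of the library within its kit in percent (horizontal axis) for 34 stranded mRNA and 14 total RNA testes. Each point is a library and open diamonds are the testes of boars 3309 and 8308; the stranded mRNA points step from 1.24 to 3.98 CPM with none between.

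The library kit was compared next, since the kits differ in how they select RNA. In testis all 48 libraries were fitted with limma on voom log2 CPM with sample quality weights and with merit group as a covariate. Of 15334 genes 66.3% were called between total RNA and stranded mRNA libraries at an adjusted p under 0.05, and of the 5 genes 1 was called. CDPF1 was lower with total RNA, with a log2 fold change of -0.55 (SE 0.12, adjusted p = 5e-05 by limma). Without the unusual libraries its levels were 3.25 to 6.92 CPM with a median of 4.82 CPM in 13 total RNA testes and 4.93 to 11.9 CPM with a median of 7.98 CPM in 33 stranded mRNA testes. Of the 13 total RNA testes 7 lay below every stranded mRNA testis. Within the low merit testes the difference was -0.38 (adjusted p = 0.073 by limma).

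PKDREJ was at 536 to 1394 CPM with a median of 1016 CPM in the total RNA testes and at 587 to 1578 CPM with a median of 1011 CPM in the others. Its log2 fold change was -0.11 (SE 0.13, adjusted p = 0.45 by limma), close to the median of -0.13 over all genes, and TMM scaling, which moved that median to 0.04, gave 0.07. The corresponding values were 0.05 (SE 0.16) for TTC38, -0.34 (SE 0.17) for GTSE1 and 0.79 (SE 0.49) for PPARA, and none passed the threshold. The kits also differed in the spermatocyte marker SYCP3, at 201 to 340 CPM in total RNA testes and 324 to 589 CPM in stranded mRNA testes. The spermatid sum had medians of 15854 and 22072 CPM. Kit, batch 3 and RNA integrity cannot be told apart.

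In liver only 2 libraries were of total RNA, and the comparison was not tested. PPARA was at 30.6 and 71.2 CPM in them, above all 46 stranded mRNA livers, whose highest was 19.6 CPM. These 2 values rest on 124 and 275 reads. CDPF1 was at 2.07 and 2.47 CPM, on 8 and 10 reads, below all stranded mRNA livers. Among 12225 genes 15.8% lay above all stranded mRNA livers in both libraries and 6.19% lay below. TTC38, at 60.1 and 90.6 CPM, PKDREJ, at 0.989 and 1.03 CPM, and GTSE1, at 0.517 and 0.741 CPM, overlapped with the stranded mRNA livers.

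The merit groups were compared in liver to ask whether the locus differs with BT. The mean count of PKDREJ in liver was under the filter, so 4 of the 5 genes were tested with this filter. No gene of the locus was called in liver by limma between high and low merit, where 3.36% of 12225 genes were called. The same held between medium and low merit, with 15.6% called, and between high and medium merit, with 0.0982% called. At an unadjusted p under 0.05 TTC38 and PPARA passed between medium and low merit, as did 3781 of all 12225 genes. None of the 4 passed between high and low or between high and medium merit, where 2097 and 1806 genes did.

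TTC38 was the gene nearest to the threshold. Its lowest, median and highest levels in stranded mRNA livers were 57.4, 90.6 and 211 CPM in low, 73.8, 115 and 199 CPM in medium and 70.1, 99.8 and 142 CPM in high merit. The ranges overlapped widely. Its log2 fold change in medium against low merit was 0.37 (SE 0.14, adjusted p = 0.0513 by limma). After TMM scaling, by which 6.00% of genes were called, it was 0.54 with an adjusted p = 0.0182 by limma. The median over all genes was -0.19 without and -0.01 with this scaling, so TTC38 stood about as far above it in both. Without TMM scaling and with the kit as a covariate, by which 15.6% of genes were called, it was 0.38 with an adjusted p = 0.0471. It was not called without sample weights, by edgeR, without a minimum count, in stranded mRNA livers only or with the 2 groups alone, with adjusted p from 0.0601 by edgeR to 0.124 by limma.

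PPARA in stranded mRNA livers was at 2.34, 7.52 and 16.9 CPM in low, 2.14, 6.42 and 19.6 CPM in medium and 4.57, 7.89 and 13.7 CPM in high merit, as the lowest, median and highest level. Its log2 fold changes were -0.06 (SE 0.23) in high and -0.52 (SE 0.25) in medium against low merit. For GTSE1 they were 0.46 (SE 0.29) and 0.04 (SE 0.31), and for CDPF1 -0.14 (SE 0.14) and 0.03 (SE 0.14). PKDREJ, under the filter, had medians of 0.140, 0.187 and 0.466 CPM in low, medium and high merit, on 1, 1.5 and 5 reads. Without a minimum count it was tested too and was not called in any of the contrasts. Of 19457 genes 0.36% were called there between high and low, 9.33% between medium and low and 0.139% between high and medium merit.

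In testis the same model called 3 of the 5 genes between high and low merit, where it called 52.8% of 15334 genes. PPARA was lower in high merit, with a log2 fold change of -1.75 (SE 0.56, adjusted p = 0.00793 by limma). In stranded mRNA testes PPARA fell into separate ranges, with 4 of 7 of low and 3 of 14 of high merit in the upper range. Its log2 fold changes in testis thus mix the share of libraries in each range with the levels within it. CDPF1 was higher by 0.58 (SE 0.12, adjusted p = 0.000123 by limma), and GTSE1 was higher by 0.57 (SE 0.17, adjusted p = 0.00474 by limma). TTC38, at -0.16 (SE 0.17), and PKDREJ, at -0.01 (SE 0.14), were not called. Without the unusual libraries the same 3 genes were called, at -1.74, 0.58 and 0.56. The groups differed in kit as well: 9 of 16 testes of low merit and 2 of 16 of high merit were total RNA libraries.

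With the kit as a covariate 2.62% of genes were called and none of the 5. The log2 fold changes were then -1.31 for PPARA (adjusted p = 0.183), 0.22 for CDPF1 (adjusted p = 0.257) and 0.39 for GTSE1 (adjusted p = 0.177), all by limma. With batch as a covariate 0.443% of genes were called and again none of the 5, at -1.34, 0.12 and 0.16 with adjusted p = 0.442, 0.801 and 0.819 by limma. Among stranded mRNA testes alone 1.26% of genes were called, and the values were -1.67, 0.33 and 0.63, with adjusted p = 0.234, 0.179 and 0.0874 by limma, and none was called. At an unadjusted p under 0.05 all 3 genes passed with the kit as a covariate and none with batch. Of all 15334 genes 2979 and 2155 passed. High and low merit shared no batch of stranded mRNA testes, so no value within such a batch could be had for them. Both groups had total RNA testes in batch 3, 2 of high and 9 of low merit, and no fit was run within it.

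The levels by library show these overlaps. In stranded mRNA testes GTSE1 was at 3.32, 4.95 and 6.41 CPM in low and 4.48, 8.62 and 11.7 CPM in high merit, as the lowest, median and highest level. CDPF1 was at 4.93, 7.42 and 10.3 CPM in low and 6.12, 8.62 and 11.9 CPM in high merit. PPARA was at 0.394, 4.57 and 7.95 CPM in low and 0, 0.632 and 6.46 CPM in high merit. In total RNA testes of high merit, 2 libraries, GTSE1 was at 3.51 and 4.67 CPM, CDPF1 at 3.75 and 5.06 CPM and PPARA at 2.06 and 3.24 CPM. The low merit total RNA testes other than that of boar 3309 held 3.01 to 8.38 CPM of GTSE1, 3.25 to 6.60 CPM of CDPF1 and 1.73 to 7.32 CPM of PPARA. High merit lay above low merit for GTSE1 and CDPF1 in the median of the stranded mRNA testes, and below it in that of the total RNA testes. The marker SYCP3 was at 456 to 589 CPM in the stranded mRNA testes of low merit and 324 to 461 CPM in those of high merit. The spermatid sum had medians of 22962 CPM in low and 22103 CPM in high merit, and the Leydig cell sum 2678 and 4406 CPM. The part of these markers in the results was not tested.

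Medium and low merit in testis gave 1 call among the 5 genes, where 38.3% of genes were called. CDPF1 was higher in medium merit by 0.37 (SE 0.13, adjusted p = 0.0171 by limma). Within batch 1 limma called 0 of 15411 genes, and 2252 had an unadjusted p under 0.05. The difference of CDPF1 was 0.12 there, with an adjusted p = 0.726 by limma. PPARA was at -0.87 (SE 0.54) over all testes and at -1.15 within batch 1, neither of which was called. Between high and medium merit 0.241% of genes were called and none of the 5. At an unadjusted p under 0.05 GTSE1 and CDPF1 passed, as did 1867 of all 15334 genes. Within batch 2, which held 14 high and 6 medium merit testes, 0.00659% of genes were called. PPARA was at -1.12, GTSE1 at 0.25 and CDPF1 at 0.19 there, none called.

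**Figure D3:**
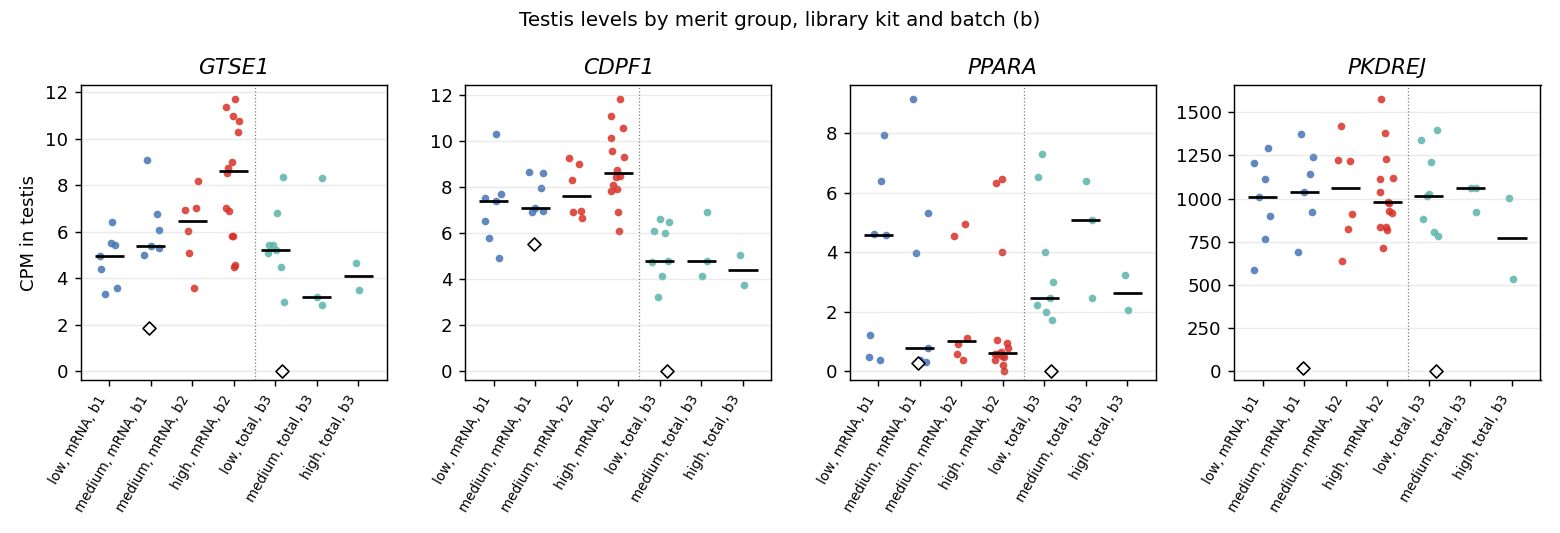
CPM in testis of GTSE1, CDPF1, PPARA and PKDREJ (vertical axes, each with its own scale) by merit group, kit and batch (b1 to b3). Dots are libraries, bars are medians and open diamonds are the testes of boars 3309 and 8308; GTSE1 has its highest median, 8.62 CPM, in high merit stranded mRNA testes, and the PPARA dots of each stranded mRNA group fall into a lower and an upper range.

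**Figure D4:**
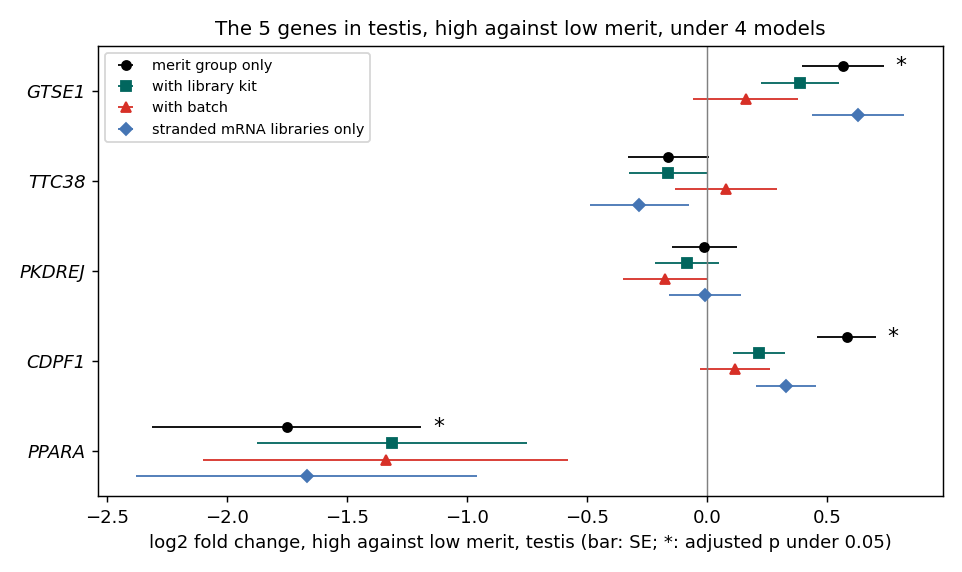
Log2 fold change of the 5 genes between high and low merit in testis under 4 models: merit group only, with library kit, with batch, and stranded mRNA libraries only. Bars are standard errors and a star marks an adjusted p under 0.05 by limma; the 3 stars all belong to the model with merit group only.

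Co-variation across boars was examined in the stranded mRNA libraries, over 25 relations in all: 10 pairs in each tissue and each gene between the tissues. In 46 livers 3 pairs were called. PKDREJ and PPARA had a Pearson's r of 0.517 (permutation p = 0.0003, adjusted p = 0.00587) and a Spearman's rho of 0.462 (permutation p = 0.00143). TTC38 and PPARA had an r of 0.492 (permutation p = 0.00047, adjusted p = 0.00587) and a rho of 0.497 (permutation p = 0.00052). TTC38 and PKDREJ, which overlap in the RefSeq annotation, had an r of 0.410 (permutation p = 0.00491, adjusted p = 0.0246) and a rho of 0.443 (permutation p = 0.00259). Without the 2 livers farthest from the median of the first gene of each pair, r was 0.479, 0.395 and 0.373.

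These relations depended on the scaling. After TMM scaling r was 0.424, 0.346 and 0.249 and no pair was called. As deviations from the means of merit group and batch r was 0.501, 0.611 and 0.511, and all 3 pairs were called. Over 6130 pairs of consecutive identifiers anywhere in the genome the median r in these livers was 0.231, and the range from the 5th to the 95th percentile was -0.25 to 0.66. The 3 values lay inside this range, but none of the 3 pairs belongs to that set. Both genes of each pair in it had a mean count above 5 in liver. PKDREJ did not, and TTC38 and PPARA are not consecutive. PKDREJ in liver rests on 0 to 29 reads. The other 7 pairs of the locus in liver had r from -0.11 to 0.20.

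**Figure D5:**
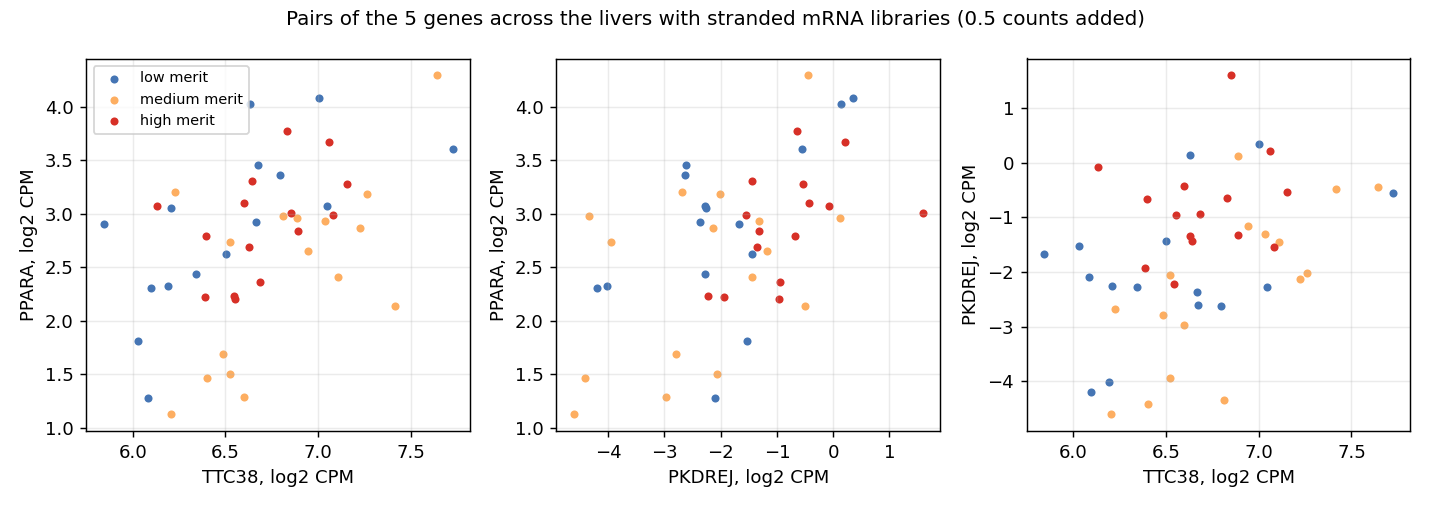
Log2 CPM (0.5 reads added) of TTC38, PKDREJ and PPARA against each other in 46 stranded mRNA livers, 1 dot per boar, coloured by merit group. PPARA rises with TTC38 (r = 0.492) and with PKDREJ (r = 0.517), and PKDREJ rises with TTC38 (r = 0.410).

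In testis 2 pairs were called over 34 boars, GTSE1 with PKDREJ (r = 0.566, rho = 0.304, permutation p = 0.00268 and 0.0815, adjusted p = 0.0167 for r) and GTSE1 with CDPF1 (r = 0.524, rho = 0.437, permutation p = 0.00145 and 0.01, adjusted p = 0.0121 for r). Neither held without the testis of boar 8308. Without it r was 0.235 and 0.445, the adjusted permutation p was 0.523 and 0.0607, and no pair of the locus was called. Within batch 1 r was 0.776 and 0.379 with this testis and 0.338 and 0.156 without it. Within batch 2 r was 0.205 and 0.424. Because testis PPARA fell into separate ranges, its relations are given within them only. Over the 21 boars of the lower range other than 8308, r of PPARA with the 4 other genes in testis ran from -0.07 to 0.33. Over the 12 boars of the upper range it ran from -0.38 to -0.03.

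No gene of the locus was called between the tissues of the same boars. For GTSE1, TTC38, PKDREJ and CDPF1 r between liver and testis was -0.02, -0.03, 0.02 and 0.06 over 34 boars, with permutation p from 0.75 to 0.909. For PPARA it was -0.08 over 21 boars in the lower and 0.43 over 12 in the upper range of testis values.

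The genes most like PKDREJ and PPARA were sought in the tissue of their higher level, as a description. Over 33 stranded mRNA testes the gene with the highest r to PKDREJ was GBF1, a factor of vesicle transport at the Golgi, with r = 0.946 among 15333 genes. Over 46 stranded mRNA livers it was EML4 for PPARA, a microtubule-associated protein, with r = 0.864 among 12224 genes. The median r with all genes was 0.166 for PKDREJ and 0.238 for PPARA.

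Of 16 genes listed as partners or targets of PPARA 10 were paired with an identifier. Their correlations with PPARA were computed after the data had been seen and are given with no test. All 10 correlated positively with PPARA over the 46 stranded mRNA livers, with r from 0.108 to 0.688. The median over all genes was 0.238, so most genes had a positive r. These r were not computed with TMM factors, which lowered those of PPARA with TTC38 and PKDREJ in liver. NCOR1, a corepressor of nuclear receptors, had the highest r, 0.688. CPT1A, which brings fatty acids into mitochondria, had 0.517, and CREB3L3, a transcription factor of fasting metabolism in liver, had 0.485. FGF21, a hormone that the liver releases in fasting, had 0.334, and PPARGC1A, a coactivator, had 0.249. PDK4, ACADM, ANGPTL4 and CPT2 had 0.116, 0.108, 0.176 and 0.227, below the median over all genes.

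None of the 10 listed genes was called in liver in any merit contrast. Of all genes 3.36% were called there between high and low, 15.6% between medium and low and 0.0982% between high and medium merit. In testis 8 of them were tested, and between high and low merit CREB3L3 was called higher, by 0.59, and PDK4 lower, at -0.63, with adjusted p = 0.00704 and 0.0111 by limma. These were 2 of 8, where 52.8% of all genes were called. With kit or with batch as a covariate 1 of 8 was called, where 2.62% and 0.443% of all genes were called. The number was 0 without sample weights, with edgeR, with DESeq2 or, of 9 tested, with stranded mRNA testes only. In this order, 0.196%, 0.0326%, 1.31% and 1.26% of all genes were called. Between total RNA and stranded mRNA testes 4 of 8 were called, where 66.3% of all genes were, all higher with total RNA, among them CPT1A by 0.76, PDK4 by 0.77 and CPT2 by 0.35. The number between kits was 6 with TMM factors, 2 with edgeR and 0 without sample weights or with DESeq2. In this order, 66.5%, 32.3%, 39.7% and 47.9% of all genes were called. Without the unusual libraries it was 7 of 9 with edgeR and 5 of 9 with DESeq2, where 68.6% and 69% of all genes were called. No listed gene was called in testis between medium and low or high and medium merit, where 38.3% and 0.241% of all genes were called.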

How the data were processed

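RNA-Seq counts of 48 livers and 48 testes were analysed. The authors trimmed reads (cutadapt 1.8.1, Trimmomatic 0.33), aligned them by STAR to the Sus scrofa 10.2 genome of Ensembl 79 and counted reads per gene by HTSeq 0.6.0 at default settings. The deposited values are raw counts. These settings count a read only on the strand of its gene, and whether that fits the strand the kits read was not tested. HTSeq's rows that name no gene (median 45.1% of each table) were left out of library sizes. Merit group, tissue, kit and boar number came from the labels, batch from the submitters' file labels.

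The members and gene lists were chosen with earlier results of these data known. Genes with a mean count above 5 were fitted with limma 3.58.1 in R 4.3.3 (voom with sample quality weights, library sizes without scaling factors, 3 merit groups, no covariates, Benjamini-Hochberg adjusted p under 0.05). Alternatives used TMM factors, no weights, edgeR 4.0.16, DESeq2 1.42.0, no filter, covariates and subsets of libraries. Fits were tested on simulated data. Boar numbers paired the tissues. CPM are counts per 1000000 reads on genes, and log2 CPM had 0.5 counts added. Correlations used 2-sided permutation tests with 100000 resamples in Python 3.11.15. Named were the 5 genes, the listed genes of PPARA, and for PKDREJ and PPARA the gene most like each. The values of 1 listed gene are not reported here. P-values measure the spread between boars, 1 library per boar and tissue, and take half-siblings as independent. No 2 libraries were identical. Precision follows depth, 3689243 to 18045966 reads on genes other than 1 library of 379942.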

Additional observations from a re-analysis of the deposited data

Results flagged for a closer look

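Among 20 groups of 6 to 9 testes (each gene by merit, kit and batch) 5 held a library far from the others, and chance marks about 1 in 20 such groups. All 5 were values of the 2 libraries described as unusual. In the total RNA testis of boar 3309 CDPF1, PKDREJ and TTC38 were at 0 CPM. The other 8 low merit total RNA testes had 3.25 to 6.60 CPM of CDPF1, 784 to 1394 CPM of PKDREJ and 8.79 to 16.0 CPM of TTC38. The 3-count limit of this library, 7.90 CPM, lay above the CDPF1 values of the others and below their PKDREJ and TTC38 values. In the stranded mRNA testis of boar 8308 GTSE1 was at 1.85 CPM, against 5.03 to 9.08 CPM in the other 6 of its group, and PKDREJ at 17.4 CPM, against 688 to 1376 CPM. The cause was not tested.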

How the results depend on the processing

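Of the numbers of genes called among the 5, those for high against low and high against medium merit in liver (0 and 0) and for high against medium merit in testis (0) were the same under every alternative run. For medium against low merit in liver TMM factors, DESeq2 and the kit as a covariate called 1 gene, TTC38, in place of 0. The 3 calls between high and low merit in testis fell to 0 without sample weights, with edgeR and with DESeq2. These fits were run only with both unusual libraries included. The calls also fell to 0 with stranded mRNA libraries only and with kit or with batch in the model. With kit or with batch this was so without both unusual libraries as well. With merit group only, limma without both unusual libraries called the same 3, among 8070 genes called. Without weights PKDREJ was at 1.52, uncalled. The 1 call between medium and low merit fell to 0 under the same settings that took the 3 calls to 0. It also fell to 0 with TMM factors, without a minimum count and within batch 1. The 1 call between kits fell to 0 with edgeR and with low merit testes only, and was 1 with edgeR and DESeq2 once both unusual libraries were left out. Counts of all genes called moved too: between high and low merit in testis from 8095 to 5 with edgeR, 201 with DESeq2 and 30 without weights, and in liver from 411 to 1, 3 and 1. Between medium and low merit they moved from 1904 to 216, 604 and 626 in liver and from 5873 to 596, 0 and 0 in testis, between high and medium merit from 12 to 3, 43 and 0 and from 37 to 334, 2 and 2, and between kits from 10171 to 4948, 7352 and 6092. Without both unusual libraries edgeR called 10399 and DESeq2 10468 between kits. TMM factors changed the split of calls: from 111 higher and 1793 lower to 389 and 344 between medium and low merit in liver, from 16 and 395 to 37 and 104 between high and low merit in liver, from 4824 and 3271 to 3486 and 3902 between high and low and from 3715 and 2158 to 1801 and 2541 between medium and low merit in testis, and from 4163 and 6008 to 5508 and 4689 between kits. The cause was not tested. TMM factors over all libraries moved the tissue difference of GTSE1 to 0.87 and of TTC38 to -4.22 and turned that of CDPF1 to -0.59. Without the pairing of tissues by boar (no replicate block) the differences were 1.72 for GTSE1, -3.02 for TTC38, 11.46 for PKDREJ, 0.43 for CDPF1 and -1.96 for PPARA, and no direction changed. Of 3 correlations called in liver 0 were called with TMM factors and 1 with all 48 libraries. Of 2 in testis 0 were called with TMM factors, 1 as deviations from group means, and 0 without both unusual libraries, as values or as deviations. PKDREJ with CDPF1 in testis was called only with all 48 libraries, at r = 0.590. Over the 34 stranded mRNA testes its r was 0.295, uncalled. Among these, without both unusual libraries, it was -0.00597 as values and -0.0442 as deviations. The settings that combine a covariate, tool or centring with leaving out unusual libraries were chosen after seeing the data. Low counts limit PKDREJ and GTSE1 in liver and PPARA in testis.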
